A study of Homo sapiens with 6 samples.

Results

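Cohesin was followed through 10 genes, chosen by name from the 18377 genes that could be read singly on the array: the ring subunits SMC1A, SMC3 and RAD21, the STAG subunits STAG1 and STAG2, the loader NIPBL, the release factor WAPL, its partners PDS5A and PDS5B, and the acetyltransferase ESCO2. All 10 were measured, and each had 1 probe set, so the choice of the brightest probe set removed nothing. The arrays compared TF-1 cells, a human erythroleukaemia line that depends on a cytokine, transfected with human PRL-3 (3 arrays, numbered 4, 5 and 6) or with the pEGFP control vector (3 arrays, numbered 1, 2 and 3). PRL-3 is the tyrosine phosphatase encoded by PTP4A3, and the series set out to examine its part in leukaemia. All cells of both groups grew with 5 ng/ml human interleukin-3 and 10% serum, and the sources do not say whether a line is 1 clone or a pool, nor whether the 3 RNAs of a group were grown separately. The p-values below therefore take single arrays as units. They set a difference between the groups against no more than the spread among arrays, which may be technical.

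Cohesin is a ring that holds sister chromatids together from S phase to anaphase and that extrudes loops of chromatin in interphase. SMC1A and SMC3 join at a hinge, RAD21 closes the ring, and either STAG1 or STAG2 binds RAD21 and helps to place the ring on DNA. NIPBL, with MAU2, loads cohesin and drives loop extrusion, WAPL with the PDS5 proteins opens the ring, and ESCO2 acetylates SMC3 in S phase so that cohesion lasts. Mutations of STAG2, SMC3, SMC1A and RAD21 recur in myeloid leukaemia.

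SMC3 rose 2.63-fold with PRL-3 and STAG1 fell, to a level 1.54-fold below control. The other 8 genes did not pass the test, which was limma with adjustment over all genes at a threshold of 0.05. The stretches just upstream of these 2 genes are shown because these are the members that moved, and in opposite directions. They are the 250 bases before the RefSeq start on GRCh38.p14, read along the gene. SMC3 lies at chr10:110567445-110567694 on the plus strand and STAG1 at chr3:136752379-136752628 on the minus strand. Capitals mark matches to the motifs searched.
SMC3: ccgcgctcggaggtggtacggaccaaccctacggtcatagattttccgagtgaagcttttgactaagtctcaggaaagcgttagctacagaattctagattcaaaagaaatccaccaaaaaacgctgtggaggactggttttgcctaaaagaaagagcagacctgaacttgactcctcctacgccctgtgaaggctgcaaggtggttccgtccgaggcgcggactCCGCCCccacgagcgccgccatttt
STAG1: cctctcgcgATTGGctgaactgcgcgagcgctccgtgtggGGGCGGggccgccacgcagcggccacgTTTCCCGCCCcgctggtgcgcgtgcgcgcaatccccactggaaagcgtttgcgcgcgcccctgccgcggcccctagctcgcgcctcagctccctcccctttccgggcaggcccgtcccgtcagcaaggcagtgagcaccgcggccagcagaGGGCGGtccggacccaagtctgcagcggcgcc

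The 7 motifs were searched on both strands as the GC box (GGGCGG), the CCAAT box (its letters), the ETS site (CCGGAAG), the E-box (CACGTG), the E2F site (TTTNNCGC), the CRE (TGACGTCA) and the STAT site (TTCNNNGAA). The SMC3 window held 1 match, a GC box 25 to 20 bases before the start. The STAG1 window held 3 GC boxes, 1 CCAAT box 241 to 237 bases before the start and 1 E2F match at 183 to 176 bases, which overlaps the GC box at 179 to 174. Among 35116 promoter windows of the same length, 42.6% held the GC box, 32.0% the CCAAT box, 8.52% the ETS site, 6.34% the E-box, 5.92% the E2F site, 1.65% the CRE and 6.57% the STAT site. Of the 10 genes 8 had an entry, with 11 windows in all. SMC1A gave 2 windows, which overlap, and STAG2 gave 3, so the 11 are not independent. Every one of these 11 windows held a GC box and none held an E-box, CRE or STAT match. The matches of STAG1 were not its own. Windows of SMC1A, STAG2 and NIPBL also held an E2F match, and those of STAG2, WAPL, PDS5A and PDS5B a CCAAT box. Windows of SMC1A and PDS5B held 3 GC boxes as well, and ETS matches lay in SMC1A and NIPBL. None of these other genes passed the test. G and C made up 52.8% of the SMC3 window, the lowest share among the 11, and 74.4% of that of STAG1, while the median over all promoters was 58%. Apart from SMC3 the windows ran from 60.0% to 78.0%, above that median, and the GC box itself consists of G and C. These matches are letters in a window, not sites of binding.

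The targeted gene matched the labels. PTP4A3 read 10.81, 10.93 and 10.79 in PRL-3 arrays, against 7.92, 8.03 and 7.97 in control arrays (log2 intensity). Over all genes 7.69% passed the test, 4.58% higher and 3.11% lower with PRL-3, and the groups did not overlap in 24.3%. The median intensity of an array ran from 89.8 to 90.6 in PRL-3 cells and from 90 to 92.9 in control cells. Of 12 TF-1 markers 10 were measured, and their average level was 8.43 to 8.73 in PRL-3 arrays and 8.45 to 8.76 in control arrays (log2). Of 12 markers of lymphoid, stromal and other cells 11 were measured, and their average level was 6.18 to 6.34 in PRL-3 arrays and 6.25 to 6.37 in control arrays. Among them LYZ, the lysozyme gene of myeloid cells, had a mean of 9.22 with PRL-3 and 9.25 in control. The table gives no detection call, so a marker cannot be called absent. Of the TF-1 markers KIT and CSF2RA rose (1.01 and 0.27, log2 difference), TFRC fell by 0.52 on the log2 scale, and 7 did not pass. CSF2RA lost its call whichever array was left out, and KIT in the unequal-variance test (adjusted p = 0.118). Limma's unadjusted p was under 0.05 for 7 of the 10, 3 higher and 4 lower, among them CSF2RB at -0.57 and CD34 at -0.44 (adjusted p = 0.104 and 0.0882, limma). Of all genes 20.2% had an unadjusted p under 0.05. The 7 became 3 in the unequal-variance test, which called 1 of the 10, and 5 without control 2. LYZ, CSF2RB and CD34 were named after their values were seen.

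**Figure D1:**
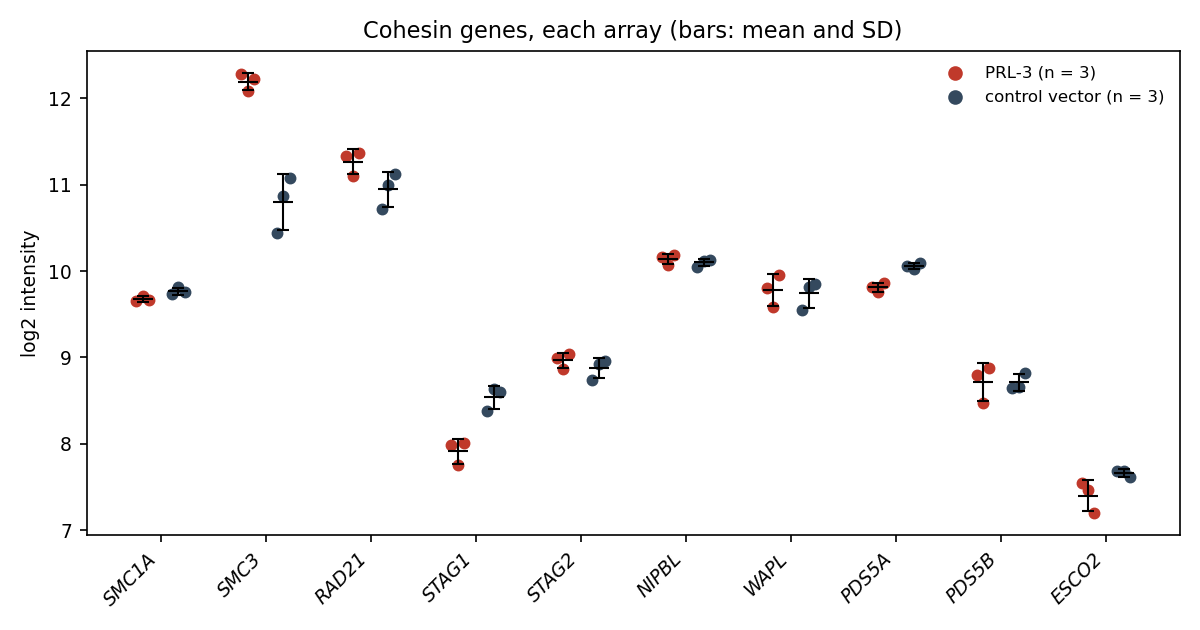
Log2 intensity of the 10 cohesin genes in each array, PRL-3 (red) left of control vector (dark), with bars for the mean and SD of 3 arrays. The 3 PRL-3 arrays lie between 12.08 and 12.28 for SMC3, all above the control arrays, and between 7.75 and 8.01 for STAG1, all below them; levels of different genes cannot be ranked against each other on this array.

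SMC3, the subunit whose head ESCO2 acetylates, read 12.28, 12.08 and 12.22 in PRL-3 arrays 4, 5 and 6, against 10.44, 10.87 and 11.08 in control arrays 1, 2 and 3 (log2 intensity, probe set 7930422). On the linear scale as deposited these are 4978, 4342 and 4766 with PRL-3, against 1390, 1878 and 2165 in control. The lowest PRL-3 array stood above the highest control array, and the control arrays were spread more widely than the PRL-3 arrays. The mean was 12.19 ± 0.1 with PRL-3 and 10.80 ± 0.33 in control (SD, n = 3 each). The difference was 1.40 ± 0.15 (log2, SE), with adjusted p = 0.0017 by limma. In bulk RNA, a change in every cell and a change in some of the cells cannot be told apart. By size this was the 22nd largest rise of 18377 genes. Permuting the 6 values gave an exact two-sided p = 0.1, the smallest that 3 against 3 allows. With an unequal-variance test of each gene alone the call was lost (adjusted p = 0.209). Of the control arrays, control 1 was the lowest, and without it the difference was 1.217 (adjusted p = 0.00135, limma).

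SMC1A, the partner of SMC3 in the ring, did not share this. It read 9.65, 9.71 and 9.67 with PRL-3, against 9.73, 9.81 and 9.76 in control (log2 intensity). The groups did not overlap, but the distance between them was small: the difference was -0.09 ± 0.064 (log2, SE), with a 95% interval of -0.24 to 0.06 and adjusted p = 0.517 by limma. Taken within each array, the log2 value of SMC3 minus that of SMC1A was 2.63, 2.38 and 2.55 with PRL-3, against 0.71, 1.06 and 1.32 in control, which changed by 1.49. The groups did not overlap, and the exact two-sided permutation test gave p = 0.1 and 0.25 after adjustment over 5 pairs, so that no pair could have passed 0.05.

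RAD21, the kleisin that separase cuts at anaphase, read 11.33, 11.10 and 11.37 with PRL-3, against 10.72, 11.00 and 11.12 in control. PRL-3 array 5 lay below control array 3, so the groups overlapped. The difference was 0.32 ± 0.12 (log2, SE; 95% interval 0.04 to 0.59), with an unadjusted p of 0.0285 and adjusted p = 0.177 by limma. It passed in 1 of 17 alternative settings, that with array weights (adjusted p = 0.0119).

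STAG1 and STAG2 are alternative subunits of the same position in cohesin, STAG1 being linked to telomere cohesion and to long-lived loops at CTCF sites and STAG2 to centromeres and to enhancer contacts. STAG1 read 7.98, 7.75 and 8.01 with PRL-3, against 8.38, 8.63 and 8.60 in control (log2 intensity, probe set 8090898). The linear values were 252.6, 215.2 and 257.9 with PRL-3 and 333.8, 395.1 and 386.9 in control. Every PRL-3 array was below every control array. The mean was 7.91 ± 0.14 with PRL-3 and 8.53 ± 0.13 in control (SD, n = 3 each). STAG1 fell by 0.62 on the log2 scale (SE 0.1), with adjusted p = 0.00862 by limma, which made it the 113th largest fall. The call was lost without control 2 (-0.576, adjusted p = 0.0546, limma) and with the unequal-variance test (adjusted p = 0.164).

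STAG2 read 8.99, 8.87 and 9.04 with PRL-3, against 8.74, 8.92 and 8.96 in control, and the groups overlapped. Its difference was 0.09 ± 0.085 (log2, SE), with a 95% interval of -0.1 to 0.29 and adjusted p = 0.642 by limma. Within each array STAG1 minus STAG2 was -1.01, -1.12 and -1.03 with PRL-3, against -0.36, -0.29 and -0.36 in control (log2). This balance between the paralogs moved by -0.71 towards STAG2 and its groups did not overlap (exact two-sided permutation p = 0.1, 0.25 adjusted over 5 pairs). The array-to-array spread of the balance, an SD of 0.057 with PRL-3 and 0.039 in control, was smaller than that of STAG1 alone. STAG1 and STAG2 are similar in sequence, and how far a probe set reads the other paralog is not known here.

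**Figure D2:**
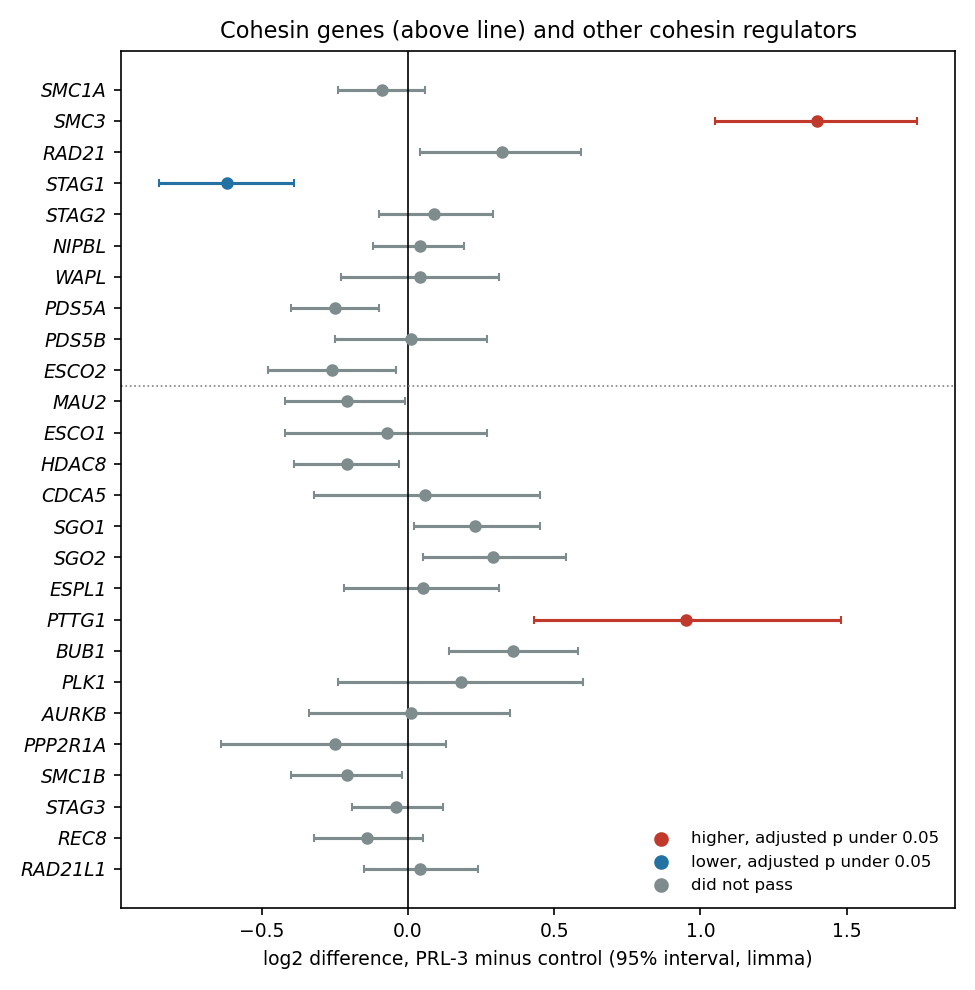
Log2 difference of PRL-3 minus control with limma's 95% interval, not adjusted for the number of genes, for the 10 cohesin genes (above the dotted line) and 16 other cohesin regulators. SMC3 (1.40) and PTTG1 (0.95) are marked as higher and STAG1 (-0.62) as lower at adjusted p under 0.05; the other genes did not pass.

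For the loader NIPBL the values were 10.16, 10.07 and 10.19 with PRL-3, against 10.05, 10.12 and 10.13 in control, with overlapping groups. The difference of 0.04 ± 0.068 (log2, SE) had a 95% interval of -0.12 to 0.19 and adjusted p = 0.847 by limma. WAPL, which opens the ring at the SMC3 to RAD21 gate, read 9.80, 9.58 and 9.95 with PRL-3, against 9.55, 9.82 and 9.85 in control. Its groups overlapped too. WAPL differed by 0.04 ± 0.12 (log2, SE; 95% interval -0.23 to 0.31; adjusted p = 0.919, limma). NIPBL minus WAPL within an array averaged 0.36 ± 0.12 in PRL-3 arrays and 0.36 ± 0.12 in control arrays (log2, SD, n = 3 each), so the balance of loader to release factor showed no shift beyond its spread.

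PDS5A and PDS5B are scaffolds that bind WAPL and also the acetylating enzymes, and so take part in release as well as in cohesion. PDS5A read 9.81, 9.76 and 9.86 with PRL-3, against 10.06, 10.02 and 10.09 in control (log2 intensity). Each PRL-3 array was below each control array, with a difference of -0.25 ± 0.065 (log2, SE; 95% interval -0.4 to -0.1) and adjusted p = 0.0606 by limma. It passed in 3 of 17 alternative settings: quantile normalization (adjusted p = 0.0478), array weights (0.0163) and an offset of 16 added to the intensity (0.0355). PDS5B read 8.80, 8.47 and 8.88 with PRL-3, against 8.65, 8.66 and 8.82 in control. Its groups overlapped, with a difference of 0.01 ± 0.11 (log2, SE; 95% interval -0.25 to 0.27; adjusted p = 0.977, limma). PDS5A minus PDS5B changed by -0.26 with overlapping groups (exact two-sided permutation p = 0.2, 0.333 adjusted over 5 pairs).

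ESCO2, made mainly in S phase, read 7.54, 7.46 and 7.20 with PRL-3, against 7.68, 7.69 and 7.61 in control. The groups did not overlap, and the lowest value was that of PRL-3 array 6. The difference was -0.26 ± 0.096 (log2, SE; 95% interval -0.48 to -0.04), with adjusted p = 0.168 by limma; it passed in 1 of 17 alternative settings, that with array weights (adjusted p = 0.0344). ESCO1, its relative that acts throughout interphase, read 8.82, 8.29 and 8.75 with PRL-3, against 8.52, 8.71 and 8.86 in control, and differed by -0.07 (adjusted p = 0.861, limma). ESCO2 minus ESCO1 changed by -0.19, with overlapping groups (exact two-sided permutation p = 0.5, 0.625 adjusted over 5 pairs).

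Of the 10 genes, then, 1 was higher, 1 was lower and 8 did not pass, where 7.69% of all genes passed. The groups did not overlap in 5 of the 10 (SMC1A, SMC3, STAG1, PDS5A and ESCO2), where 24.3% of all genes did not. An unadjusted p under 0.05 was found for 5 of the 10, against 20.2% of all genes. The median difference over the 10 was 0.024, and over all genes -0.015 (log2). The differences ran from -0.62 to 1.40, with 6 above 0 and 4 below, so the cohesin genes did not shift together. They were singled out with earlier results of these arrays known, so these counts are a description.

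**Figure D3:**
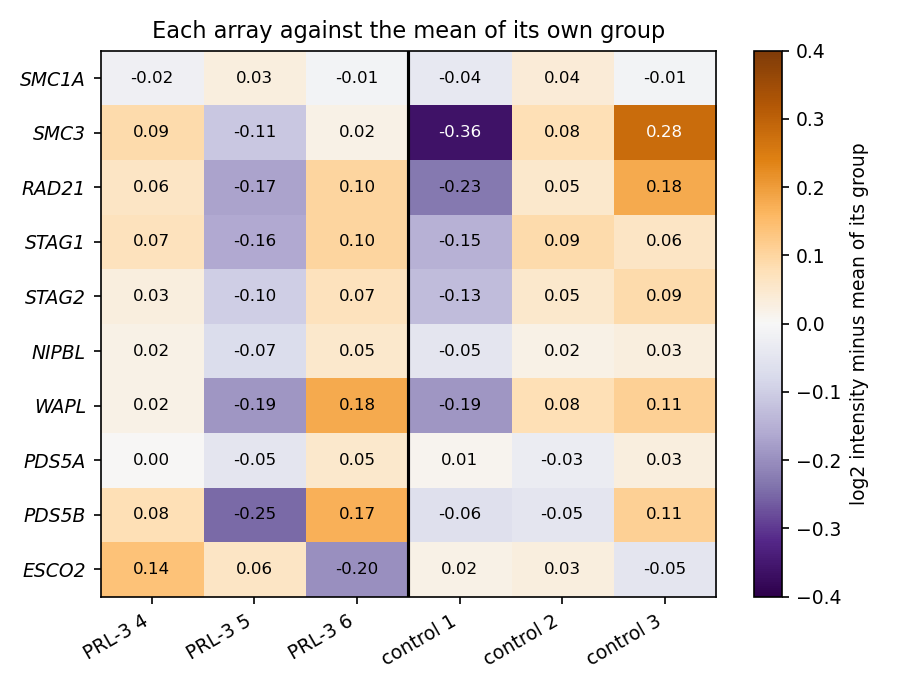
Each array's log2 intensity minus the mean of its own group for the 10 cohesin genes, with the 3 PRL-3 arrays left of the line and the 3 control arrays right of it. PRL-3 5 and control 1 are the lowest arrays of their groups in 8 genes each, and the widest gap is that of SMC3 in control 1 (-0.36).

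Within the groups most of the cohesin genes had the same low arrays. PRL-3 5 was the lowest of its group in 8 of the 10 genes, all but SMC1A, where it was the highest, and ESCO2. Control 1 was the lowest of its group in 8, all but PDS5A and ESCO2. Over all genes PRL-3 5 was the lowest in 37% and control 1 in 35.4%, near an even share among 3 arrays. Both were the lowest of their groups in 7 of the 10 cohesin genes and in 20.9% of all genes. This order was not particular to cohesin. SMC2, SMC4, SMC5 and SMC6 of condensin and SMC5/6 had it too, as did the mitosis genes CENPE, HMMR and TTK. Other genes of those lists did not, and NCAPD2 and CDC20 were highest in PRL-3 5. These genes were named after their values were seen. The largest departures were those of SMC3 in control 1 and control 3 (-0.36 and 0.28 from the group mean, log2) and of PDS5B in PRL-3 5 (-0.25). In ESCO2 PRL-3 6 was lowest (-0.2). Without control 1 and PRL-3 5, a setting added after the data were seen, SMC3 differed by 1.272 (adjusted p = 0.000883) and STAG1 by -0.615 (adjusted p = 0.00668) in limma, and the counts of 1 higher and 1 lower were the same.

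Of 16 other genes that load, acetylate, protect or cut cohesin, 1 rose, 0 fell and 15 did not pass, and limma's unadjusted p was under 0.05 for 7, 4 higher and 3 lower. Over all genes 7.69% passed and 20.2% had an unadjusted p under 0.05; the 7 became 1 in the unequal-variance test, which called 0, and 3 without control 2. The 1 that rose was PTTG1, securin, which holds separase inactive until anaphase. It read 9.04, 8.72 and 9.31 with PRL-3, against 7.66, 7.98 and 8.56 in control (log2 intensity). The groups did not overlap, though both were widely spread. PTTG1 differed by 0.95 ± 0.23 (log2, SE, adjusted p = 0.0419, limma) and lost its call without control 1, control 2, PRL-3 4 or PRL-3 6; it passed in 10 of 17 alternative settings. BUB1, the kinase that recruits shugoshin to centromeres, differed by 0.36 (adjusted p = 0.0583, limma), and the cohesin protectors SGO1 and SGO2 by 0.23 and 0.29 (adjusted p = 0.207 and 0.157). MAU2, the partner of NIPBL, differed by -0.21 (adjusted p = 0.23) and HDAC8, the SMC3 deacetylase, by -0.21 (adjusted p = 0.176, limma). Of the same list PPP2R1A differed by -0.25, PLK1 by 0.18 and AURKB by 0.01 (adjusted p = 0.49, 0.676 and 0.989, limma). BUB1, SGO1, SGO2, MAU2, HDAC8, PPP2R1A, PLK1 and AURKB were named after their values were seen. For the meiotic subunits SMC1B, STAG3, REC8 and RAD21L1 and for separase (ESPL1) and sororin (CDCA5) the test was not passed either.

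In replication fork genes that support cohesion, 0 of 13 measured passed limma, 2 had an unadjusted p under 0.05, and the unequal-variance test called 0. Condensin and SMC5/6 genes, the relatives of cohesin, gave 0 higher and 1 lower of 16, with 4 at an unadjusted p under 0.05 in limma and 0 called by the unequal-variance test, shares close to the 7.69% and 20.2% of all genes. The 1 was NSMCE4A, a kleisin of the SMC5/6 complex, at 8.93, 8.99 and 8.88 with PRL-3, against 9.30, 9.24 and 9.21 in control (log2). NSMCE4A fell by 0.31 on the log2 scale (adjusted p = 0.028, limma), with no overlap; without control 1, control 2, PRL-3 4 or PRL-3 6 it did not pass, and it held in 10 of 17 settings.

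Chromatin loop partners gave 1 higher and 1 lower of 12 measured, where 4.58% and 3.11% of all genes passed. Limma's unadjusted p was under 0.05 for 4 of the 12, against 20.2% of all genes, and the unequal-variance test called 0 (3 unadjusted). CTCF, the zinc finger protein at which cohesin stops to anchor loops, read 8.98, 9.07 and 8.99 with PRL-3, against 9.35, 9.28 and 9.23 in control (log2 intensity). It fell by 0.28 on the log2 scale (adjusted p = 0.0474, limma), and the groups did not overlap. The call was close to the threshold and held in 1 of the 6 fits that left out 1 array, that without control 3, and in 6 of 17 settings in all. ZNF143, a promoter-bound zinc finger protein found at many loop anchors, read 8.12, 7.89 and 7.95 with PRL-3, against 7.39, 7.65 and 7.44 in control. Its difference was 0.49 ± 0.095 (log2, SE, adjusted p = 0.0197, limma), without overlap. It did not pass without control 1, PRL-3 4 or PRL-3 6, nor in the unequal-variance test (adjusted p = 0.194).

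Since cohesin regulators such as ESCO2 and PTTG1 follow the cell cycle, genes of its phases are given beside them. S phase genes passed in 0 of 16 in limma (2 at an unadjusted p under 0.05) and in 0 by the unequal-variance test, with a median difference of -0.042 (log2). G2 and mitosis genes rose in 1 of 16, CDK1, the kinase that starts mitosis, while 0 fell, where 4.58% of all genes passed as higher. An unadjusted p under 0.05 in limma was found for 8, all higher, against 20.2% of all genes in either direction. That 8 became 4 in the unequal-variance test, which called 0 of the 16, and 6 without control 2. CDK1 read 8.03, 8.07 and 8.20 with PRL-3, against 7.59, 7.58 and 7.60 in control, a difference of 0.51 ± 0.07 (log2, SE, adjusted p = 0.00454, limma; 0.187 in the unequal-variance test). The median difference of this list was 0.21, and 15 of its 16 genes lay above 0. Over all genes the median was -0.015, and 8279 of 18377 lay above 0. The part of the cell cycle in the cohesin differences was not tested.

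SMC3 stands on chromosome 10 next to other genes that were higher with PRL-3. Of the 5 measured genes on each side of it in RefSeq order, 6 rose, 0 fell and 4 did not pass, where 4.58% of all genes rose. Limma's unadjusted p was under 0.05 for 8, all higher, where 20.2% of all genes had one in either direction. Only the surroundings of SMC3, the member that rose, were examined, with earlier results of these arrays known. These counts are therefore a description. SHOC2, which helps RAS to activate RAF, read 11.68, 11.67 and 11.84 with PRL-3, against 9.71, 9.78 and 9.93 in control, and differed by 1.92 ± 0.086 (log2, SE, adjusted p = 3.42e-05, limma). PDCD4, an inhibitor of translation initiation that lies between SMC3 and SHOC2, read 12.08, 11.94 and 12.14 with PRL-3, against 11.14, 11.15 and 11.45 in control, a difference of 0.81 ± 0.1 (adjusted p = 0.00347, limma).

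ADD3, an adducin of the membrane skeleton, rose by 0.52, DUSP5, a phosphatase of ERK, by 0.41, GPAM, which starts triglyceride synthesis, by 0.35 and the pseudogene RPL13AP6 by 0.72 (log2 differences, adjusted p = 0.0069, 0.0379, 0.0349 and 0.0203, limma). RPL13AP6 lies inside SHOC2 and has close copies, so its value is uncertain. XPNPEP1 (-0.09) and ADRA2A (-0.01) lay near 0, and MXI1 (0.22) and SMNDC1 (0.54) did not pass; these 4 were named to complete the row. With 1 array left out 3 to 4 of the 10 rose, 3 of them without control 1, control 2, PRL-3 4 or PRL-3 6. DUSP5 and GPAM lost their calls in all 6 of these fits. The unequal-variance test called 1 of the 10, SHOC2 (adjusted p = 0.0463), where it called 7 genes higher and 4 lower in all. Its unadjusted p was under 0.05 for 7 of the 10, all higher. The part of these neighbours in the difference of SMC3 was not tested.

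**Figure D4:**
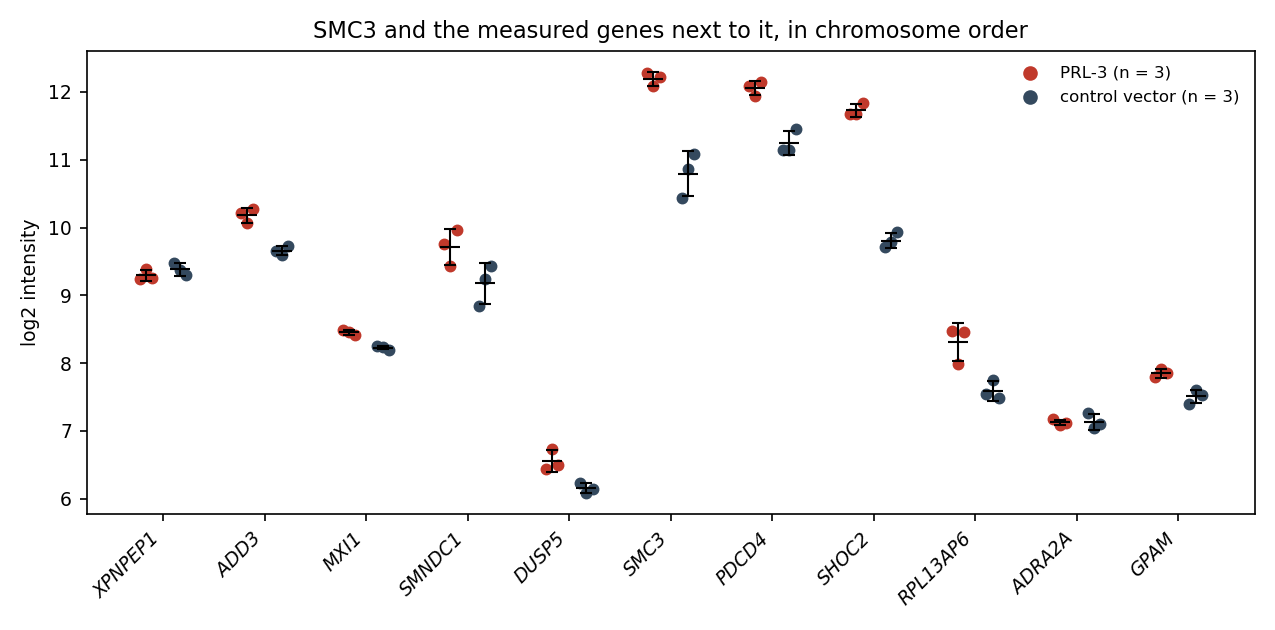
Log2 intensity of SMC3 and of the 5 measured genes on each side of it in chromosome order, PRL-3 (red) left of control vector (dark), with bars for the mean and SD of 3 arrays. SMC3, PDCD4 and SHOC2, which follow each other, differ by 1.40, 0.81 and 1.92 (log2), while XPNPEP1 and ADRA2A differ by -0.09 and -0.01.

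The genes whose 6 values lay nearest to those of SMC3, after each gene was centred on its own mean, were MSMO1, a sterol synthesis enzyme, SLC2A3, a glucose transporter, and MYO6, a myosin. Their Euclidean distances from SMC3 were 0.321, 0.362 and 0.429 (log2 units, over 6 arrays), out of 18376 genes compared. MSMO1 read 7.89, 7.73 and 8.12 with PRL-3, against 6.34, 6.70 and 6.68 in control. Like SMC3 it was lowest in PRL-3 5 and in control 1 within the groups, as was MYO6. SLC2A3 was lowest in PRL-3 5 (9.16) but in control 2 (7.78) rather than control 1 (7.83). These genes were picked by the same 6 values, so likeness in their order follows in part from the choice.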

How the data were processed

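The deposited table listed an intensity for each of 28869 probe sets on each array. Its values are positive, linear and alike in their medians, and were treated as normalized. The authors' summary and normalization of the probes are not given in the sources used here. Any normalization between arrays makes every difference relative to the bulk of genes. Per the labels' protocols, 100 ng total RNA was made into biotinylated cDNA.

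The log2 of each intensity was taken without an offset. Of the probe sets, 19310 had 1 symbol in the platform annotation, 1752 several and 7807 none; 19279 of the first matched RefSeq (GRCh38.p14) by Entrez identifier. The brightest probe set over all 6 arrays stood for each of 18377 genes. Some members of the other lists are not reported here. The test was that of limma 3.58.1 (lmFit, eBayes; R 4.3.3), two-sided, with Benjamini-Hochberg adjustment over all genes at 0.05. SE is limma's moderated error. The procedure was tested on simulated data with independent noise for each gene and array. Array deviations shared between genes were not part of that simulation. The number of arrays limits the precision, and no batch is given.

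Named were the 10 members and PTP4A3, up to 6 members past the threshold of each other list, SHOC2 and the genes past the threshold among 5 on each side of SMC3, and the 3 nearest patterns to the member with the smallest p. Members and lists were chosen with earlier results of these data known. Alternatives were quantile normalization, array weights, a median shift, robust variances with a trend, leaving out dim genes at 2 levels, averaging or listing all probe sets of a gene, an unequal-variance test, an offset of 16, and each array left out. Promoter sequences are those of RefSeq, GRCh38.p14. Figures were drawn with matplotlib 3.10.9.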

Additional observations from a re-analysis of the deposited data

How the results depend on the processing

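In the alternative settings (17, or 16 for DUSP5 and MYO6, which the filter at the median level left out) 0 of the 20 named genes that passed changed sign, and PTP4A3, SHOC2 and TFRC passed in all 17. SMC3 stayed between 1.217 and 1.537 and lost its call in the unequal-variance test only. Of the 8 cohesin genes that did not pass, 2 turned sign: WAPL was -0.056 without control 1 and -0.051 without PRL-3 6, and PDS5B was -0.012 after quantile normalization and ran from -0.073 to 0.136 with 1 array left out, when WAPL ran from -0.056 to 0.134 (PDS5B was negative at -0.02 without control 1, -0.014 without control 2, -0.032 without PRL-3 4 and -0.073 without PRL-3 6). Array weights called 2 cohesin genes higher and 3 lower, and 2122 genes higher and 2303 lower in all. These weights were estimated from the spread of the same arrays. Quantile normalization called 2 cohesin genes lower, as did the offset of 16. The unequal-variance test, in which each gene rests on its own 6 values, called 0 cohesin genes higher and 0 lower (4 at an unadjusted p under 0.05, 1 higher and 3 lower), 1 of the genes next to SMC3, and 7 genes higher and 4 lower in all. With 1 array left out, the cohesin genes called lower were 0 (without control 2, where limma had 2 lower at an unadjusted p under 0.05) to 1, those called higher stayed at 1, the genes next to SMC3 called higher were 3 to 4, and all genes called higher were 388 to 792 and lower 178 to 747, with fewer arrays behind each fit. No paired analysis was possible because the groups share no replicate number. The number of arrays and the missing detection call limit what can be said of the dimmer genes.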
